A study of Homo sapiens with 10 samples.

Results

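Krüppel-like factors (KLF) are the subject here: 10 listed genes of the family (KLF1, KLF2, KLF3, KLF4, KLF6, KLF9, KLF10, KLF11, KLF13 and KLF16), read by symbol from tables of 59204 human genes. All 10 had at least 1 count in total RNA and 9 had at least 1 labelled count. After a filter of at least 10 counts in at least 2 libraries, 7 of the 10 were tested in labelled RNA (KLF1, KLF3, KLF6, KLF9, KLF10, KLF11 and KLF16) and 8 of the 10 in total RNA (these and KLF13). The cells were K562, an established human leukemia line with erythroid and megakaryocytic features. They were exposed for 2 hours to the vehicle DMSO, to actinomycin D at 1 µg/mL (a DNA intercalator that blocks elongating RNA polymerases), to AZ-5576 at 1 µM (an inhibitor of CDK9, the kinase that frees paused RNA polymerase II), to JQ1 at 1 µM (which displaces BET bromodomain proteins from acetylated histones) or to A-485 at 1 µM (an inhibitor of the acetyltransferase domain of CBP and p300), with 2 libraries per group. All groups also received 100 µM 4-thiouridine for the last 1 hour. SLAM-seq reads the incorporated 4-thiouridine as T-to-C conversions, so labelled counts are RNA made in that hour and total counts are the whole mRNA pool.

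KLF proteins bind CACCC and GC boxes in DNA through a block of C-terminal zinc fingers, and their N-terminal parts recruit either activators such as CBP and p300 or corepressors such as CtBP and SIN3A. KLF1 is the erythroid activator of globin, heme and red cell membrane genes, and KLF3 is a repressor that KLF1 activates and that competes for the same sites. KLF6, KLF9, KLF10 and KLF11 are broadly expressed genes that respond to signals, with KLF10 and KLF11 best known as early targets of TGF-beta and KLF9 as a target of glucocorticoid and thyroid hormone.

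Human counts per library ran from 14916671 to 17918971 in total RNA. Their labelled counts ran from 434411 to 448401 in DMSO, 411716 to 447455 under A-485, 322771 to 342847 under JQ1, 53503 to 62513 under AZ-5576 and 1410 to 1614 under actinomycin D. Counts were scaled to the Drosophila spike-in, which held 1817677 to 2212752 counts per library. All 10 of 10 erythroid and megakaryocytic genes that mark K562 were present, with summed total counts of 69160 to 88609 per library. Of 15 markers of other lineages 3 (MS4A1, MPO and KRT5) were at 0 and 8 had a mean of at least 10 counts, and their sum stayed between 2092 and 2485 in every library. The titles do not say whether the libraries of a group came from separate cultures, so the p-values measure the spread between these libraries, which may be technical. In such bulk RNA, a fall in fewer cells and a fall in RNA per cell cannot be told apart.

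In DMSO the KLF genes of K562 differed widely in both their total level and their labelled share. KLF1 (hg38 chromosome 19, 12884422 to 12887199) had 1569 and 1285 total counts in the DMSO libraries, and KLF16 (chromosome 19, 1852399 to 1863568) had 1351 and 1467. Per 1000000 spike-in counts this was 767 ± 85.4 for KLF1 (SD, n = 2) and 760 ± 66.7 for KLF16, levels that overlapped. KLF3 (chromosome 4, 38664196 to 38701042) followed at 184 ± 28.3. KLF6 (chromosome 10, 3775996 to 3785281) stood at 89.1 ± 17.1, KLF11 (chromosome 2, 10042849 to 10054836) at 81.5 ± 5.58 and KLF9 (chromosome 9, 70384597 to 70414624) at 69.7 ± 13.5, and each of these overlapped its neighbour in the order. KLF10 (chromosome 8, 102648779 to 102655902) was at 64.1 ± 0.377, within the range of KLF9, and KLF13 (chromosome 15, 31326855 to 31435665) at 22.3 ± 11.3. KLF2 (chromosome 19, 16324817 to 16327874) and KLF4 (chromosome 9, 107484852 to 107490482) were barely present. These 3′ end libraries place reads at the poly(A) end, so a count does not grow with transcript length and was not divided by it.

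The labelled share is the percentage of a gene's counts that carried conversions. In DMSO it was small for the 2 most abundant members, KLF1 and KLF16, and also for KLF13, the scarcest of the 8 tested in total RNA (5 of 82 counts, 6.10%, 95% Wilson interval 2.63 to 13.5). KLF10 had 62 and 62 labelled counts against 121 and 117 in total, a pooled share of 52.1% that exceeded the share of 99.7% of 10409 genes with enough counts, whose median was 3.71%. KLF6 stood at 41.8% (above 99.4% of genes) and KLF11 at 31.7% (above 98.6%). KLF9 at 19.4% and KLF3 at 19.2% were each above 95.1% of genes. KLF1 at 3.99% lay near the median gene, above 52.9% of genes, and KLF16 at 2.13% lay above 30.7%. As mean ± SD over the libraries these shares were 52.1% ± 1.24 for KLF10, 42.2% ± 4.30 for KLF6, 31.2% ± 10.0 for KLF11, 18.9% ± 5.66 for KLF9, 19.1% ± 1.98 for KLF3, 4.03% ± 0.468 for KLF1 and 2.14% ± 0.526 for KLF16 (n = 2 each). A share also depends on how many T bases the reads of a gene cover, which was not measured.

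The 3′ untranslated regions of the strongly labelled members held ATTTA, the core of the AU-rich elements bound by mRNA decay factors. In the longest annotated 3′ untranslated region of each gene (sense strand, GENCODE 29), ATTTA occurred 2.58 times per 1000 bases in KLF11, 2.52 in KLF9, 2.23 in KLF10, 2.12 in KLF3 and 1.69 in KLF6, beside a median of 1.61 over 9204 genes. It occurred 0.971 times per 1000 bases in KLF16 and 0.893 in KLF13, and the 463 bases of KLF1 held none, while 71.8% of the 9204 genes held at least 1. The barely present KLF2 and KLF4 held 3.56 and 2.225 per 1000 bases, so a high density was not limited to the strongly labelled members. The longer form TTATTTATT, which overlaps ATTTA, was found only in KLF16 among the 8 tested members (1 match) and in 8.69% of genes. A match describes letters and not a bound site. The 30-base stretches of hg38 below show ATTTA matches in capitals, each on its own strand. KLF6 and KLF11 were the 2 members that lost most total RNA under AZ-5576, and their stretches hold 2 matches each. The stretch of KLF3 holds 1 of the 8 matches in its region and is no denser than a stretch around another of them:
KLF6, chr10:3778791-3778820, minus strand: gtATTTAcaaatataacacaacaATTTAac
KLF11, chr2:10053938-10053967, plus strand: ttaccagcATTTAcctttATTTAaatgatg
KLF3, chr4:38697377-38697406, plus strand: tctgaatctctgaATTTAtatcatccaaaa

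The promoters of KLF1, KLF16 and KLF11 are shown because these genes separated under JQ1 and A-485: labelled KLF1 fell with both drugs, and labelled KLF16 and KLF11 were called lower with neither. The RefSeq table (GRCh38.p14) matched 8 of the 10 members, without KLF3 and KLF10. Windows are the 250 bases before an annotated start, and exon-covered bases were left off, which shortened KLF11 to 204 bases of the second of its 2 starts. Capitals mark matches on either strand to GATA motifs (GATAA or GATAG after A or T), to the CRE (TGACGTCA, the site of CREB) or to CACCC:
KLF1, chr19:12887202-12887451, minus strand: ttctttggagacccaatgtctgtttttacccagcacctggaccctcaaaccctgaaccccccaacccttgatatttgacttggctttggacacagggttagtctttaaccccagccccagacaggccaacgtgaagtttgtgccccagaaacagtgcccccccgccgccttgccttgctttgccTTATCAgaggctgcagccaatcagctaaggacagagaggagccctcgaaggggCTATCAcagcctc
KLF16, chr19:1863580-1863829, minus strand: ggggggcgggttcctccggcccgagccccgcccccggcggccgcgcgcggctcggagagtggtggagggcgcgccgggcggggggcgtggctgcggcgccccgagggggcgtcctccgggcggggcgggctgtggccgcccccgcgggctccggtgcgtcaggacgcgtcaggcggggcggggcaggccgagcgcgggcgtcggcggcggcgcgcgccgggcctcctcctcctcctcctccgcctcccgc
KLF11, chr2:10043971-10044174, plus strand: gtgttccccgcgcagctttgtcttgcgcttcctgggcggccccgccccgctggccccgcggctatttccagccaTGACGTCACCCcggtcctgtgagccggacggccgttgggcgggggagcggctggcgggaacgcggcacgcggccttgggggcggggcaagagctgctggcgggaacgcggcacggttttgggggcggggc
The KLF1 window held 2 GATA matches, 66 and 13 bases before the start, and no CACCC or CRE. At least 1 GATA match was in 22.3% of 35116 promoter windows of that length. KLF1 was the only member of the 8 matched with a GATA match. KLF16 held none of the 3 motifs, and 86.4% of its window was G or C. KLF2, KLF4, KLF6 and KLF9 also held none, although labelled KLF6 and KLF9 were called lower with A-485. KLF11 held a CRE 176 bases before its second start, overlapping a CACCC match at 170 bases. The window before its first start held none of the 3 motifs. CRE matches were in 1.65% of windows and CACCC in 54.7%. KLF13 also held a CACCC match, 22 bases before its start. These are letters in a window, with no measurement of binding.

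Actinomycin D removed labelled RNA from each of the 7 members tested: both libraries had 0 labelled counts for KLF1, KLF3, KLF6, KLF9, KLF10, KLF11 and KLF16. Against a limit of 3 counts over the group, KLF6 was at least 51.9-fold lower, KLF3 at least 49.3-fold, KLF10 at least 46.6-fold, KLF1 at least 42.9-fold, KLF11 at least 36.1-fold, KLF16 at least 22.6-fold and KLF9 at least 18.8-fold lower. All 7 of 7 were called lower (edgeR, adjusted p under 0.05), beside 99.2% of all genes tested, so the count says nothing apart about the family. AZ-5576 also lowered all 7 of 7, beside 94.7% of all genes. With AZ-5576 labelled KLF1 went from 58 and 56 counts to 0 and 0 (at least 39.8-fold lower), and labelled KLF11 from 62 and 34 to 0 and 0 (at least 33.5-fold lower). The others kept a few labelled reads, 11 and 10 for KLF10, 6 and 3 for KLF6, 5 and 0 for KLF3, 0 and 5 for KLF9 and 1 and 5 for KLF16. KLF10 had the least negative log2 fold change of the 7, -2.61 (SE 0.49), beside a median of -5.94 over all genes. With TMM factors from the human counts in place of the spike-in, which moves the median gene by 2.83 under AZ-5576 and 1.03 under actinomycin D, AZ-5576 left 2 members called lower and KLF9, KLF10 and KLF16 turned to 0.091, 0.89 and 0.11, and actinomycin D left 0 called.

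**Figure D1:**
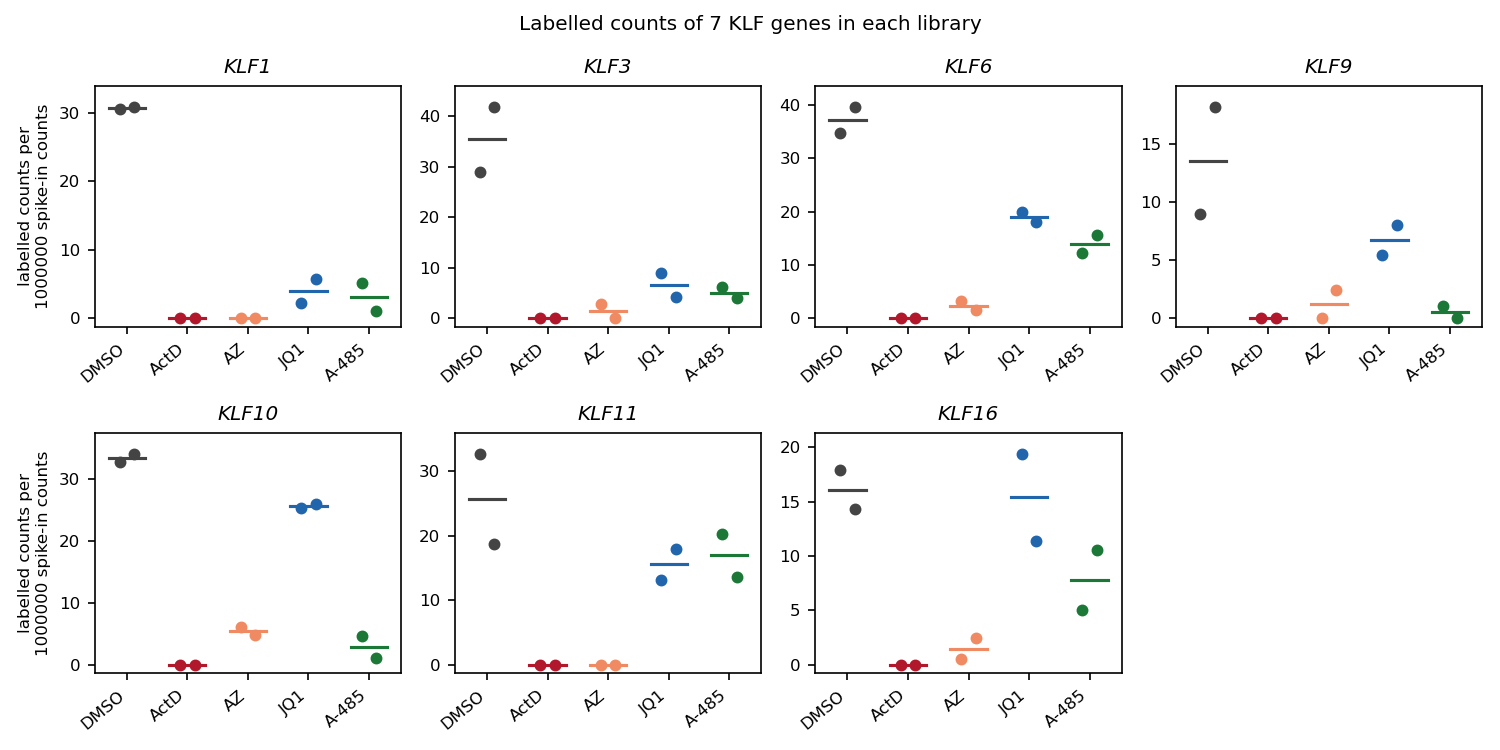
Labelled counts per 1000000 spike-in counts (y axis, linear, its own range in each panel) of 7 KLF genes in each of the 2 libraries of DMSO, actinomycin D (ActD), AZ-5576 (AZ), JQ1 and A-485. Points are libraries and lines are group means; KLF1 and KLF3 are low with JQ1 and A-485 alike, KLF10 stays at 76.8% of DMSO with JQ1 and 8.34% with A-485, and no member has labelled counts with actinomycin D.

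Labelled KLF1, the erythroid activator, fell with both chromatin drugs. The labelled counts stood at 58 and 56 in DMSO, 5 and 12 in JQ1 and 10 and 2 in A-485 libraries, so both drugs lay far below DMSO and overlapped each other. The log2 fold change was -2.94 (SE 0.59, adjusted p = 1.7e-05) with JQ1, 7.68-fold lower, and -3.31 (SE 0.62, adjusted p = 7.63e-06) with A-485, 9.93-fold lower. Both calls held under all 9 alternatives tried. The mRNA pool of KLF1 moved less: it had 1569 and 1285 total counts in DMSO, while JQ1 libraries had 1088 and 894, A-485 libraries 914 and 871, AZ-5576 libraries 999 and 1099 and actinomycin D libraries 1257 and 1308. Scaled to the spike-in, every drug library lay below both DMSO libraries. Total KLF1 was at 58.8% of DMSO with A-485, 59.6% with JQ1, 70.4% with AZ-5576 and 79.8% with actinomycin D. The falls with JQ1 (-0.75, SE 0.12, adjusted p = 2.68e-05) and A-485 (-0.77, SE 0.12, adjusted p = 2.86e-05) were called under every alternative. The fall with actinomycin D (-0.33, SE 0.11, adjusted p = 0.0387) lost its call under 6 of 9 alternatives, and the fall with AZ-5576 (-0.51, SE 0.11, adjusted p = 0.00152) without the first DMSO library (adjusted p = 0.0529).

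Labelled KLF3, the repressor that KLF1 activates, fell with the same drugs. The labelled counts stood at 55 and 76 in DMSO, 20 and 9 in JQ1 and 12 and 8 in A-485 libraries, with no overlap between DMSO and either drug. The log2 fold change was -2.39 (SE 0.51, adjusted p = 5.43e-05) with JQ1 and -2.79 (SE 0.54, adjusted p = 1.35e-05) with A-485, 5.26-fold and 6.92-fold lower, and both calls held under all 9 alternatives. The pool of KLF3 had 311 and 371 total counts in DMSO, while JQ1 libraries had 188 and 159, A-485 libraries 218 and 162, AZ-5576 libraries 135 and 146 and actinomycin D libraries 133 and 215. The pool therefore stood between 39.3% and 52.2% of DMSO under each of the 4 drugs. All 4 falls were called, with log2 fold changes of -1.16 (SE 0.20) for actinomycin D, -1.35 (SE 0.20) for AZ-5576, -1.20 (SE 0.20) for JQ1 and -0.94 (SE 0.20) for A-485. The call with A-485 was lost without the second DMSO or the second A-485 library (log2 fold changes across the alternatives from -1.17 to -0.73).

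KLF10, an early response gene of TGF-beta signalling, separated JQ1 from A-485. The labelled counts stood at 62 and 62 in DMSO, 56 and 55 in JQ1 and 9 and 2 in A-485 libraries: the JQ1 libraries stood just below DMSO and the A-485 libraries far below both. The log2 fold change with A-485 was -3.56 (SE 0.55, adjusted p = 1.06e-08), 11.8-fold lower, and with JQ1 it was -0.38 (95% interval -1.18 to 0.42, adjusted p = 0.49). Tested directly, labelled KLF10 was lower with A-485 than with JQ1 by 3.18 on the log2 scale (SE 0.55, adjusted p = 4.16e-07), a call that held under all 9 alternatives. The pool followed the label: it had 121 and 117 total counts in DMSO, while JQ1 libraries had 130 and 87, A-485 libraries 19 and 22, AZ-5576 libraries 29 and 41 and actinomycin D libraries 16 and 11. Total KLF10 with A-485 was thus near its level with actinomycin D, at 16.2% and 10.1% of DMSO. The falls were -3.30 (SE 0.36) with actinomycin D, -1.83 (SE 0.32) with AZ-5576 and -2.62 (SE 0.34, adjusted p = 1.96e-06) with A-485. With JQ1 the value was -0.36 (SE 0.29, adjusted p = 0.469), and A-485 against JQ1 gave -2.26 (SE 0.34, adjusted p = 1.79e-05), called under every alternative.

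KLF6, a broadly expressed factor of the activating kind, kept more of its label under both chromatin drugs than KLF1 did. The labelled counts stood at 66 and 72 in DMSO, 44 and 38 in JQ1 and 24 and 31 in A-485 libraries, ordered without overlap. The fall with A-485 was -1.42 (SE 0.42, adjusted p = 0.0202), but without any 1 of the 4 libraries compared it was no longer called (log2 fold changes from -1.61 to -1.25 across the alternatives, adjusted p up to 0.348). With JQ1 the value was -0.97 (SE 0.41, adjusted p = 0.0542), which became a call by DESeq2 (adjusted p = 0.0388) and with only the 2 groups compared (adjusted p = 0.0168). The pool of KLF6 had 146 and 184 total counts in DMSO, while JQ1 libraries had 134 and 114, A-485 libraries 76 and 74, AZ-5576 libraries 46 and 34 and actinomycin D libraries 36 and 44. The pool fell to 21.4% of DMSO with actinomycin D (-2.22, SE 0.28), 23.4% with AZ-5576 (-2.10, SE 0.28) and 42.6% with A-485 (-1.23, SE 0.26, adjusted p = 0.00457). The last of these calls was lost without the second DMSO library or without either A-485 library. With JQ1 total KLF6 was at 64.2% (-0.64, SE 0.25, adjusted p = 0.106).

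KLF9, a hormone-responsive factor, was measured with fewer and more scattered counts. The labelled counts stood at 17 and 33 in DMSO, 12 and 17 in JQ1 and 2 and 0 in A-485 libraries, so the A-485 libraries stood apart and the first DMSO library equalled the second JQ1 library before scaling. DMSO over A-485 was 26.6 (95% counting interval 7.0 to 226, from 50 and 2 counts), and the edgeR call (adjusted p = 0.000191) was lost without the second DMSO or the second A-485 library. With JQ1 the log2 fold change was -1.0 (SE 0.69, adjusted p = 0.258). The pool of KLF9 had 114 and 144 total counts in DMSO, while JQ1 libraries had 78 and 125, A-485 libraries 77 and 41, AZ-5576 libraries 32 and 121 and actinomycin D libraries 62 and 68. No drug gave a called change in the pool: the values were -1.17 (SE 0.46, adjusted p = 0.0974) for actinomycin D, -0.85 (SE 0.45) for AZ-5576, -0.56 (SE 0.44) for JQ1 and -1.22 (SE 0.46, adjusted p = 0.478) for A-485, and the AZ-5576 libraries differed from each other more than their mean differed from DMSO. The absence of a call depended on the processing: with only the 2 groups compared total KLF9 was called lower with actinomycin D (adjusted p = 0.000526), AZ-5576 (0.00999) and A-485 (0.000468), and with no count filter the adjusted p were 0.00092, 0.0358 and 0.00403. Without the second AZ-5576 library it was called lower with AZ-5576 (-1.99, adjusted p = 0.000518).

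KLF11, the nearest relative of KLF10 and like it a SIN3A-recruiting repressor, had another pattern. The labelled counts stood at 62 and 34 in DMSO, 29 and 38 in JQ1 and 40 and 27 in A-485 libraries, and the scaled A-485 libraries overlapped DMSO. Neither drug gave a called change: -0.73 with JQ1 (95% interval -1.61 to 0.15) and -0.60 with A-485 (95% interval -1.48 to 0.28). The pool of KLF11 had 162 and 141 total counts in DMSO, while JQ1 libraries had 101 and 106, A-485 libraries 133 and 112, AZ-5576 libraries 17 and 15 and actinomycin D libraries 48 and 44. The pool was lowest with AZ-5576, at 10.2% of DMSO (-3.30, SE 0.31, adjusted p = 2.04e-10), and fell to 27.0% with actinomycin D (-1.89, SE 0.27, adjusted p = 1.32e-06). With A-485 it stood at 76.0% (-0.40, SE 0.25, adjusted p = 0.863). The fall with JQ1, to 58.8% (-0.77, SE 0.25, adjusted p = 0.0475), lost its call under 7 of 9 alternatives, DESeq2 and each library left out among them.

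KLF16, a GC-box factor with a mostly repressive record, and KLF13, an activator of globin and lymphoid genes, had no called change in total RNA under any drug. Labelled KLF16 counts were 34 and 26 in DMSO, 43 and 24 in JQ1 and 10 and 21 in A-485 libraries, with log2 fold changes of -0.06 (95% interval -1.06 to 0.93) and -1.04 (95% interval -2.11 to 0.03, adjusted p = 0.417). Its mRNA pool had 1351 and 1467 total counts in DMSO, while JQ1 libraries had 1494 and 1494, A-485 libraries 1277 and 1195, AZ-5576 libraries 1219 and 1523 and actinomycin D libraries 1234 and 1490, which was 82.3% to 92.5% of DMSO after scaling. KLF13 had 3 and 2 labelled counts in DMSO, 1 in the second library each of AZ-5576 and A-485 and 0 in all others, too few to test. Its mRNA pool had 27 and 55 total counts in DMSO, while JQ1 libraries had 46 and 27, A-485 libraries 68 and 57, AZ-5576 libraries 38 and 33 and actinomycin D libraries 48 and 61, and the DMSO libraries spanned most of that range. KLF2, the endothelial and lymphoid factor, had 2 and 1 total counts in DMSO and at most 2 in any other library. KLF4, a factor of epithelia and pluripotent cells, had 0 in DMSO, actinomycin D and AZ-5576, 2 and 5 in JQ1 and 1 and 0 in A-485 libraries. Neither had enough counts to be tested.

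**Figure D2:**
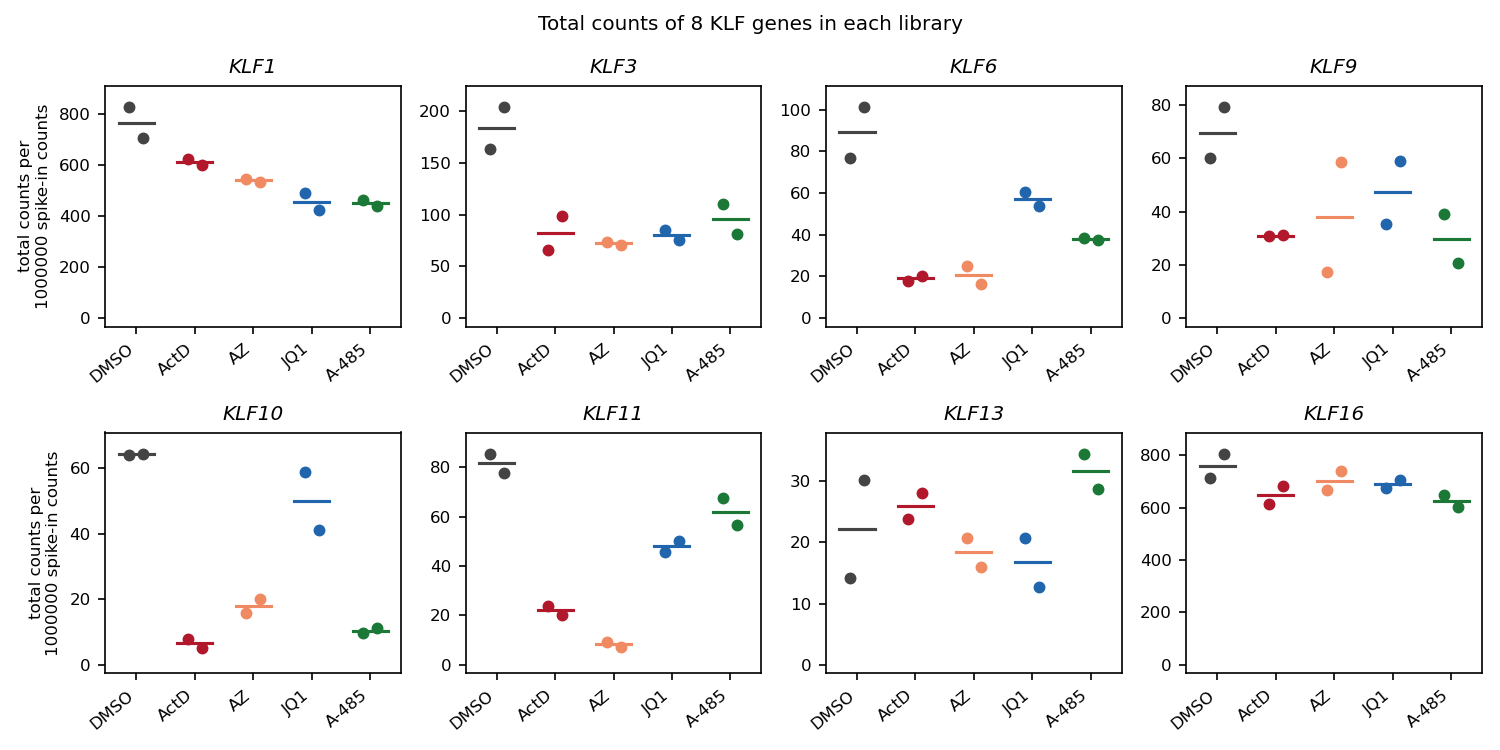
Total counts per 1000000 spike-in counts (y axis, linear, its own range in each panel) of 8 KLF genes in each of the 2 libraries of DMSO, actinomycin D (ActD), AZ-5576 (AZ), JQ1 and A-485. Points are libraries and lines are group means; KLF10 is lowest with actinomycin D and A-485, KLF11 with AZ-5576, and KLF16 stays between 82.3% and 92.5% of DMSO.

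**Figure D3:**
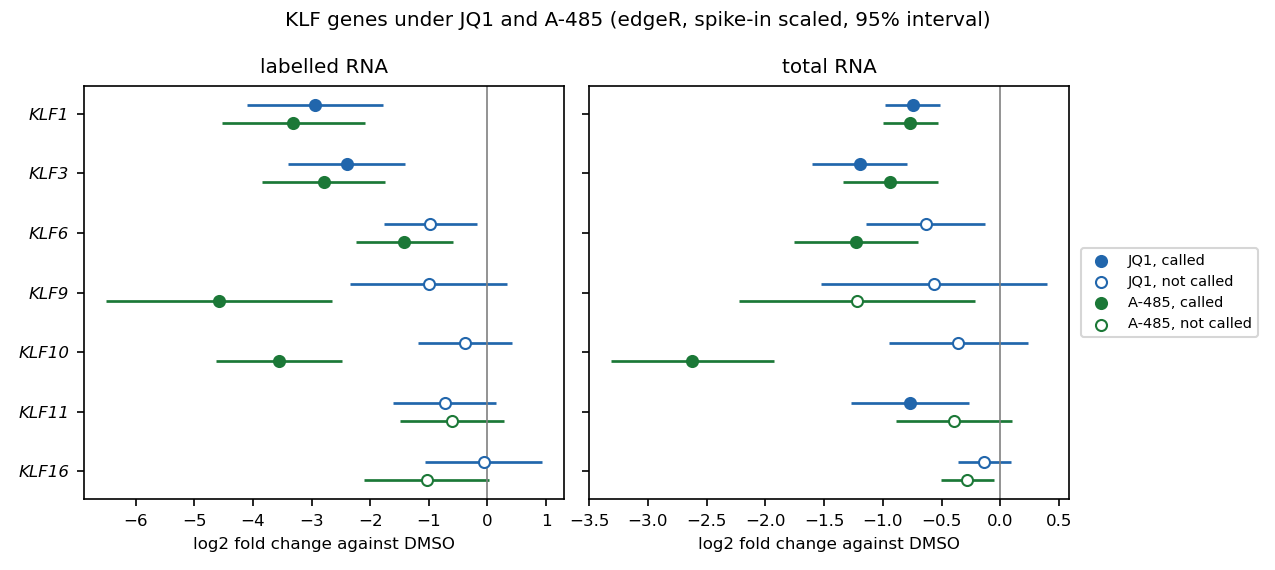
Log2 fold change against DMSO (x axis) of 7 KLF genes with JQ1 (blue) and A-485 (green), in labelled RNA (left) and total RNA (right, another x range). Bars are 95% intervals from the edgeR fit; filled points were called at an adjusted p under 0.05 and open points were not. KLF10 and KLF9 lie furthest left with A-485 in labelled RNA, and KLF1 and KLF3 are called with both drugs in both panels.

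Counted over the family, JQ1 lowered labelled RNA of 2 of 7 members tested (KLF1 and KLF3) beside 28.6% of all genes, and the median of the 7 was -0.97 beside -0.85 over all genes. The count over all genes moved with the processing, from 2286 of 7996 to 1184 without the first DMSO library, 1093 without the second, 1518 without the second JQ1 library and 415 with TMM factors, while KLF1 and KLF3 were called in each, and DESeq2 called 3 of 7 members (KLF6 added) and 1958 genes. A-485 lowered 5 of 7 (KLF1, KLF3, KLF6, KLF9 and KLF10) beside 4.86% of all genes, with a median of -2.79 beside -0.09. Without the second DMSO or the second A-485 library 3 of these 5 calls were left. In total RNA 5 of 8 members fell under actinomycin D beside 19.7% of genes, 5 of 8 under AZ-5576 beside 12.9%, 3 of 8 under JQ1 beside 7.35% and 4 of 8 under A-485 beside 1.20%. The medians of the 8 in total RNA, in that order of drugs, were -1.16, -1.10, -0.60 and -0.85, beside -0.27, -0.15, -0.19 and -0.04 over all genes. Without the second DMSO or the second A-485 library 2 of the 4 calls with A-485 were left. No member was called higher than DMSO by edgeR in either RNA under any drug, none at an unadjusted p under 0.05, and none by DESeq2 (0 of 7 and 0 of 8). Of all genes, 0% were called higher in labelled RNA under actinomycin D, 0.200% under AZ-5576, 1.26% under JQ1 and 0.163% under A-485. In total RNA these were 0.336%, 0.782%, 0.837% and 0.0343%. The comparisons with DMSO share the DMSO libraries.

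Drugs were also compared with each other. In labelled RNA A-485 was below JQ1 in 2 of 7 members, KLF10 and KLF9 (-3.58, SE 1.03, adjusted p = 0.00425, lost without the second A-485 library), beside 3.14% of all genes. KLF1 (-0.37, 95% interval -1.81 to 1.07) and KLF3 (-0.40, 95% interval -1.58 to 0.79) gave no called difference between these drugs, with intervals that still allow a difference of over 1 on the log2 scale. In total RNA only KLF10 of 8 was lower with A-485 than with JQ1, beside 1.20% of genes, and the interval for KLF1 was narrow (-0.02, 95% interval -0.26 to 0.22). JQ1 was above AZ-5576 in labelled RNA for 7 of 7 members, beside 84.9% of all genes, and with TMM factors for 1 of 7. The call for KLF3 was lost without the second AZ-5576 or the first JQ1 library, and that for KLF9 without the first AZ-5576 or the second JQ1 library. In total RNA JQ1 was above AZ-5576 for 3 of 8, beside 4.16% of genes: KLF11 by 2.53 (SE 0.32, adjusted p = 2.37e-07), KLF10 by 1.48 (SE 0.32, adjusted p = 0.00217) and KLF6 by 1.46 (SE 0.28, adjusted p = 0.000433). The call for KLF10 was lost without the first AZ-5576 or the first JQ1 library.

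KLF10 and KLF11 were ordered in opposite ways by the drugs that block elongation, a comparison added after the counts were seen. Total KLF10 was higher with AZ-5576 than with actinomycin D by 1.46 (SE 0.40, adjusted p = 0.035), beside 2.00% of genes called higher, and total KLF11 was lower by 1.41 on the log2 scale (SE 0.34, adjusted p = 0.0134), beside 0.371% called lower. Library by library, the scaled values of the drugs did not overlap for either gene. Both calls were weak: that of KLF10 was lost under 7 of 9 alternatives (adjusted p up to 0.321) and that of KLF11 under 4 (up to 0.219), each without a change of sign.

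**Figure D4:**
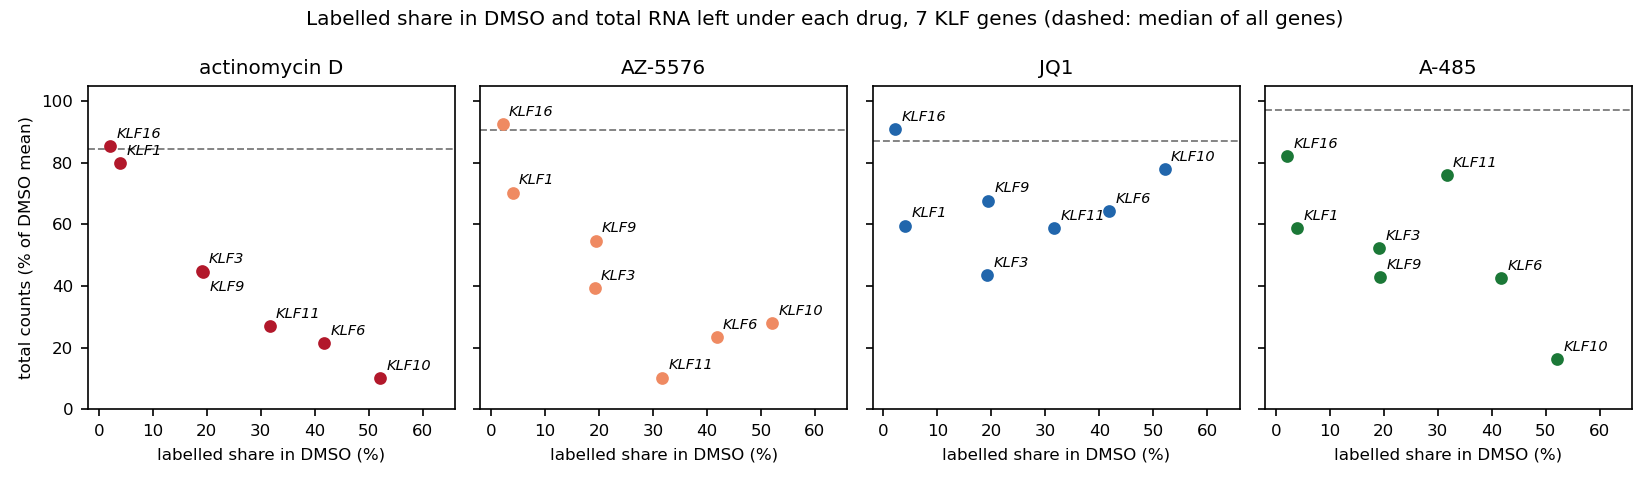
Labelled share in DMSO (x axis, % of a gene's counts pooled over 2 libraries) against total counts left under each drug (y axis, % of the DMSO mean, spike-in scaled) for 7 KLF genes, with 1 panel per drug. The dashed line is the median of 10409 genes. With actinomycin D the 7 points fall from KLF16 (85.4%) to KLF10 (10.1%) as the share rises. With JQ1 KLF10 is at 77.9% and KLF3 at 43.5%. KLF13 had too few counts to be ranked and is not shown. With actinomycin D it lay outside that order (share 6.10%, total RNA 117% of DMSO).

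Set against the labelled share in DMSO, total RNA left with actinomycin D fell in order from KLF16 (85.4%) and KLF1 (79.8%) through KLF3 (44.8%), KLF9 (44.5%) and KLF11 (27.0%) to KLF6 (21.4%) and KLF10 (10.1%), while the median gene kept 84.5%. With JQ1 that order was absent: KLF10 kept 77.9%, KLF6 64.2% and KLF1 59.6%, and the lowest was KLF3 at 43.5%. With A-485 the member with the second-highest labelled share, KLF6, kept 42.6%, KLF11 kept 76.0% and KLF10 16.2%. KLF13 had too few counts to be ranked and is left out of this order. Its share was 6.10% and its total RNA with actinomycin D was at 117% of DMSO, overlapping DMSO, which lay outside the order. The 7 points come from the same libraries and are given as a description.

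The labelled share of each gene was also tested for each drug against DMSO, which asks whether new RNA changed beyond the pool. With AZ-5576 the share was lower for 6 of 7 members beside 93.6% of all genes, and the exception was KLF10, whose share was 31.2% ± 9.57 (SD, n = 2) against 52.1% ± 1.24 in DMSO (-1.30, SE 0.84, adjusted p = 0.13). With JQ1 only KLF1 of 7 was lower (4.03% ± 0.468 to 0.901% ± 0.624, log2 change of the odds -2.25, SE 0.55, adjusted p = 0.00233), beside 15.4% of all genes. With A-485 again only KLF1 was lower (0.662% ± 0.611, -2.62, SE 0.59, adjusted p = 0.00187), beside 2.64% of genes. DESeq2 called neither (with A-485 it gave 4 of the 7 members no adjusted p), and neither was called without the second DMSO library, without the first JQ1 library (JQ1) or without the second A-485 library (A-485). Nearest to the threshold with A-485 were KLF9 (-3.63, SE 1.1, adjusted p = 0.0506) and KLF3, whose share was 5.22% ± 0.400 (-2.08, SE 0.67, adjusted p = 0.0846), and each was called with only the 2 groups compared.

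Related genes are described from lists chosen with earlier results of these data known, so their counts are no independent evidence. Of 17 other KLF and SP genes, 4 were tested in labelled RNA and 7 in total RNA. The 3 with the highest total counts were SP3, SP1 and SP2, GC-box factors of the sister family. Labelled SP1 fell with JQ1 (-1.62, SE 0.53, adjusted p = 0.0124), as did SP2 (-2.88, SE 1.1, adjusted p = 0.0375), and SP3 did not pass (-0.50, SE 0.61). With A-485 0 of the 4 were called lower (0 also by DESeq2, which left 2 of them without an adjusted p), with SP1 at 0.06 (SE 0.48) and SP3 at 0.19 (SE 0.59). Scaled labelled SP2 was at 55.8% of its DMSO mean with A-485, without overlap, from few counts (27 in DMSO and 16 in A-485). The median of the 4 was -0.38 beside -0.09 over all genes. In total RNA 4 of 7 fell under actinomycin D, 1 under AZ-5576, 2 under JQ1 and 1 under A-485, beside 19.7%, 12.9%, 7.35% and 1.20% of all genes.

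Of 25 genes known as targets of KLF1 in red cells, 11 were tested in labelled RNA: 6 fell with JQ1 and 5 with A-485, beside 28.6% and 4.86% of all genes, with medians of -1.70 and -1.37 beside -0.85 and -0.09 over all genes. ZBTB7A, a repressor of fetal globin, fell by 1.29 (SE 0.18) with JQ1 and by 0.80 (SE 0.18, adjusted p = 0.000421) with A-485. ANK1, which anchors the membrane skeleton, fell by 1.70 (SE 0.25) with JQ1 and by 0.87 (SE 0.24, adjusted p = 0.0073) with A-485. E2F2, a cell cycle factor, fell by 2.60 with JQ1 (SE 0.47) and was at 0.39 with A-485 (SE 0.38, adjusted p = 0.788). In total RNA 24 of the 25 were tested and 3 fell with JQ1 and 1 with A-485, beside 7.35% and 1.20% of all genes. With the replicate block 7 of them fell with JQ1, while the count over all genes went from 1071 to 1972 of 14572.

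Of 17 partners of KLF proteins, 14 were tested in labelled RNA, and 8 fell with JQ1 and 3 with A-485, beside 28.6% and 4.86% of all genes. Their medians were -1.05 and -0.26, beside -0.85 and -0.09 over all genes. TAL1, the erythroid factor that works beside GATA1 and KLF1, fell with both (-2.51, SE 0.45, adjusted p = 1.06e-06 with JQ1, and -2.98, SE 0.48, adjusted p = 5.41e-08 with A-485). FHL3, a LIM cofactor, fell with A-485 (-2.62, SE 0.42, adjusted p = 6.95e-08) and not past the threshold with JQ1 (-0.87, SE 0.36, adjusted p = 0.0539). EP300 (p300, a target of A-485) fell by 0.96 (SE 0.32, adjusted p = 0.0141) with JQ1 and was at 0.16 (SE 0.30) with A-485, and HDAC2, a deacetylase, fell by 1.20 (SE 0.37, adjusted p = 0.00786) with JQ1 and was at -0.39 (SE 0.36) with A-485.

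Genes with the most similar response were found by the Euclidean distance of log2 fold changes over 7 comparisons with DMSO, among 1932 candidate genes. Nearest to KLF1 were MYEOV (distance 0.48), PHACTR1 (0.64) and CBFA2T3 (1.04), the last a corepressor of erythroid and megakaryocytic genes. MYEOV stood at -3.19 and -3.45 in labelled RNA with JQ1 and A-485, where KLF1 was at -2.94 and -3.31. Nearest to KLF6 were PHF13 (0.73), SLC30A1 (0.78), a zinc exporter, and GDF15 (1.16), a stress cytokine. Nearest to KLF3 were SALL2 (1.22), CASS4 (1.46) and CAVIN2 (1.53). The fold of KLF1 under AZ-5576 is set against 0 counts and depends on the prior count of the fit, which enters its distances.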

How the data were processed

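The deposited tables hold raw read counts per gene, not normalised, per the file headers: all human reads, human reads with T-to-C conversions and Drosophila spike-in reads. Per the labels' protocols, purified RNA was alkylated with iodoacetamide, then 5% Drosophila RNA was added and 3′ end libraries were made, so RNA content per cell was not measured. Per the submitters' processing notes, the tools were Trim Galore 0.6.5, bcl2fastq 2.17.1.14 and bedtools; the sources used here name no aligner or conversion caller. Groups came from the titles. Each comparison used the robust quasi-likelihood test of edgeR 4.0.16 (R 4.3.3, two-sided). Its library size was the spike-in total, its fit held the 5 groups together (10 libraries), and p-values were adjusted by Benjamini-Hochberg over 7996 genes (labelled), 14572 (total) and 7960 (share, labelled against unlabelled counts). The common biological coefficient of variation was 24.8%, 10.9% and 17.9%. Intervals are at 95%; bounds and counting intervals cover counting error only. Fits were tested on simulated data. Alternatives were TMM factors, DESeq2 1.42.0, no count filter, only the 2 groups compared, a replicate block and each library left out, 9 per comparison of labelled or total RNA. For the share TMM was not run, which left 8, or 7 where DESeq2 gave no adjusted p. Every listed member is named; of related lists the 3 or 4 genes with the highest DMSO counts are named, except 1 that is not reported here, and nearest genes are given for KLF1 and the 2 members with the most labelled DMSO counts. Members and lists were chosen with earlier results of these data known. Positions and 3′ untranslated regions came from GENCODE 29 and promoters from RefSeq. Antisense genes overlapping KLF3, KLF11 and KLF16 had 2, 1 and 0 total counts over all libraries, and KLF pseudogenes 0.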

Additional observations from a re-analysis of the deposited data

How the results depend on the processing

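The falls of labelled KLF1 and KLF3 with JQ1, of labelled KLF1, KLF3 and KLF10 with A-485, and of labelled and total KLF10 between A-485 and JQ1 kept their direction and call under all 9 alternatives. In total RNA so did the falls of KLF1 with JQ1 and A-485 and of KLF3 with actinomycin D, AZ-5576 and JQ1. The same held in total RNA for KLF6 and KLF11 with actinomycin D and AZ-5576. It also held for total KLF10 with actinomycin D, AZ-5576 and A-485. Labelled counts of 0 to 76 per library limit the labelled results. The cause of the changes below was not tested, except that leaving out a library leaves fewer samples.

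With TMM factors 0 members were called lower in labelled RNA with actinomycin D, 2 with AZ-5576, and 1 was called higher with JQ1 than with AZ-5576. Under TMM the labelled log2 fold change with AZ-5576 became 0.091 for KLF9, 0.89 for KLF10 and 0.11 for KLF16; with JQ1 it became 0.45 for KLF10, 0.099 for KLF11, 0.76 for KLF16 and 0.33 for SP3; A-485 against JQ1 became -0.57 for KLF11; and JQ1 against AZ-5576 became -0.32 for KLF3, -0.26 for KLF9 and -0.44 for KLF10. Labelled KLF16 became a call for A-485 against JQ1 under TMM (-1.68, adjusted p = 0.0171), and total KLF9 for JQ1 against AZ-5576 without the second AZ-5576 library (1.43, adjusted p = 0.0383). Total KLF16 became 0.025 with actinomycin D, 0.040 under AZ-5576, 0.064 under JQ1 and 0.023 for JQ1 against AZ-5576. With DESeq2 the labelled share was called lower in 0 members with JQ1 and 0 with A-485 (where 4 of 7 had no adjusted p), and 0 were higher in total RNA with AZ-5576 than with actinomycin D, as with TMM. With only the 2 groups compared, 0 were called higher and 0 lower in that comparison, and 3 members had a lower share with A-485.

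With 1 library left out at a time, members called lower ranged from 3 to 4 in labelled RNA with A-485, 1 to 2 in labelled RNA for A-485 against JQ1, 2 to 4 in total RNA with A-485, 0 to 1 in total RNA for AZ-5576 against actinomycin D (0 to 0 called higher), and 0 to 1 for the share with JQ1 and 0 to 1 with A-485. Uncalled log2 fold changes that changed sign ranged as follows. In labelled RNA KLF16 with JQ1 ran from -0.50 to 0.27, SP3 with JQ1 from -0.90 to 0.049, SP3, SP1 and EP300 with A-485 from -0.21 to 0.74, -0.13 to 0.29 and -0.16 to 0.41, and KLF1, KLF3 and KLF11 for A-485 against JQ1 from -1.91 to 0.42, -0.83 to 0.24 and -0.19 to 0.39. In total RNA KLF13 ran from -0.22 to 0.86 under actinomycin D, -0.72 to 0.36 under AZ-5576, -0.84 to 0.24 under JQ1 and -0.52 to 0.18 for JQ1 against AZ-5576, where KLF9 ran from -0.32 to 1.43 and KLF16 from -0.10 to 0.052. KLF1 for A-485 against JQ1 ran from -0.12 to 0.093, and KLF3, KLF6 and KLF9 for AZ-5576 against actinomycin D from -0.45 to 0.13, -0.21 to 0.40 and -0.82 to 0.92. The share ran from -0.52 to 0.66 for KLF10, -0.38 to 0.58 for KLF11 and -0.41 to 0.45 for KLF16 with JQ1, and from -0.74 to 0.23 for KLF11 with A-485.

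Same-numbered libraries did not deviate together in labelled RNA (correlations of deviations from -0.018 to 0.025). In total RNA the correlations ran from -0.0082 to 0.13, so a weak shared deviation was present between some groups. The numbers were not taken as pairs. With the replicate block, genes called lower with JQ1 in total RNA went from 1071 to 1972 of 14572. With the replicate block 2 members were lower in labelled RNA with JQ1 and 5 with A-485, as without it; KLF1 targets called lower in total RNA went to 5 with actinomycin D, 7 with JQ1 and 2 with A-485.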
